A study of Drosophila melanogaster with 8 samples.

Results

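Basement membranes are thin sheets of secreted matrix that wrap tissues, and in the fly larva one of them, the neural lamella, encloses the ventral nerve cord. Their core is a network of collagen IV trimers and a network of laminin trimers, each made of an alpha, a beta and a gamma chain, which nidogen and the heparan sulphate proteoglycan perlecan tie together. In Drosophila the larval fat body and hemocytes are known sources of collagen IV, and fly collagen IV is known to bind the BMP ligand Dpp. The 10 basement membrane genes were selected by symbol for their known products, with earlier results of these data known. Of these, 9 were matched among 14175 gene identifiers. They are the collagen IV chain genes vkg and Col4a1, the nidogen gene Ndg, the collagen-binding glycoprotein gene SPARC, the laminin genes LanA, LanB1, LanB2 and wb, and the papilin gene Ppn. The perlecan gene trol was paired with no identifier of the files by the name tables and was not analysed here. All 9 matched genes passed the filter on low counts.

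RNA came from ventral nerve cords of female larvae at the wandering stage of the third instar, raised at 25 °C in the w1118 background, and each of 2 genotypes had 4 libraries. The mutants were w;;witA12,st1/witB11,st1 and the controls w;;witA12,st1/+, so all animals carried w and at least 1 copy of the witA12, st1 chromosome. The gene wit encodes a type II BMP receptor, and the comparison asks which transcripts of the nerve cord differ when both copies of it are mutant. Each library pooled 25 nerve cords with the brain lobes cut away, per the labels' protocols, so the values are averages over all cells and attached tissue that came with the cord. Beyond this the labels give the larvae per vial, but not how many larvae or vials separate the replicates. The p-values therefore weigh the genotype difference against the spread between these pools.

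Libraries held from 20923717 to 32740480 estimated counts. The wit transcript itself was at 86.8 ± 3.97 CPM (counts scaled to a common library total) in wit mutants and 90.6 ± 3.43 CPM in controls (SD, n = 4 each), with an edgeR adjusted p of 0.371. The labels do not give the lesions, so this level does not check the genotype. Mutant replicate 1 lay farthest from the other mutant libraries on the second principal component of all genes, which held 14.3% of the variance. In bulk RNA, fewer cells of a type and less RNA per cell cannot be told apart. The neuron markers elav (1020 to 1120 CPM in wit mutants and 1150 to 1170 CPM in controls) and nSyb and the glial marker repo were abundant in all 8 libraries.

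The 9 genes did not move together. In wit mutants both collagen IV genes and the nidogen gene were lower, the laminin genes LanA and LanB2 were higher, and SPARC, LanB1, wb and Ppn did not pass the test. Thus 3 of 9 genes fell, against 8.66% of all 9176 genes tested, and 2 of 9 rose, against 6.12% of all genes. As the list was chosen with earlier results of these data known, these counts are no test of it. The median log2 fold change was -0.19 over the 9 genes and 0.01 over all genes tested. For the same 5 genes the 4 mutant and the 4 control values did not overlap, against 20.5% of all genes tested.

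**Figure D1:**
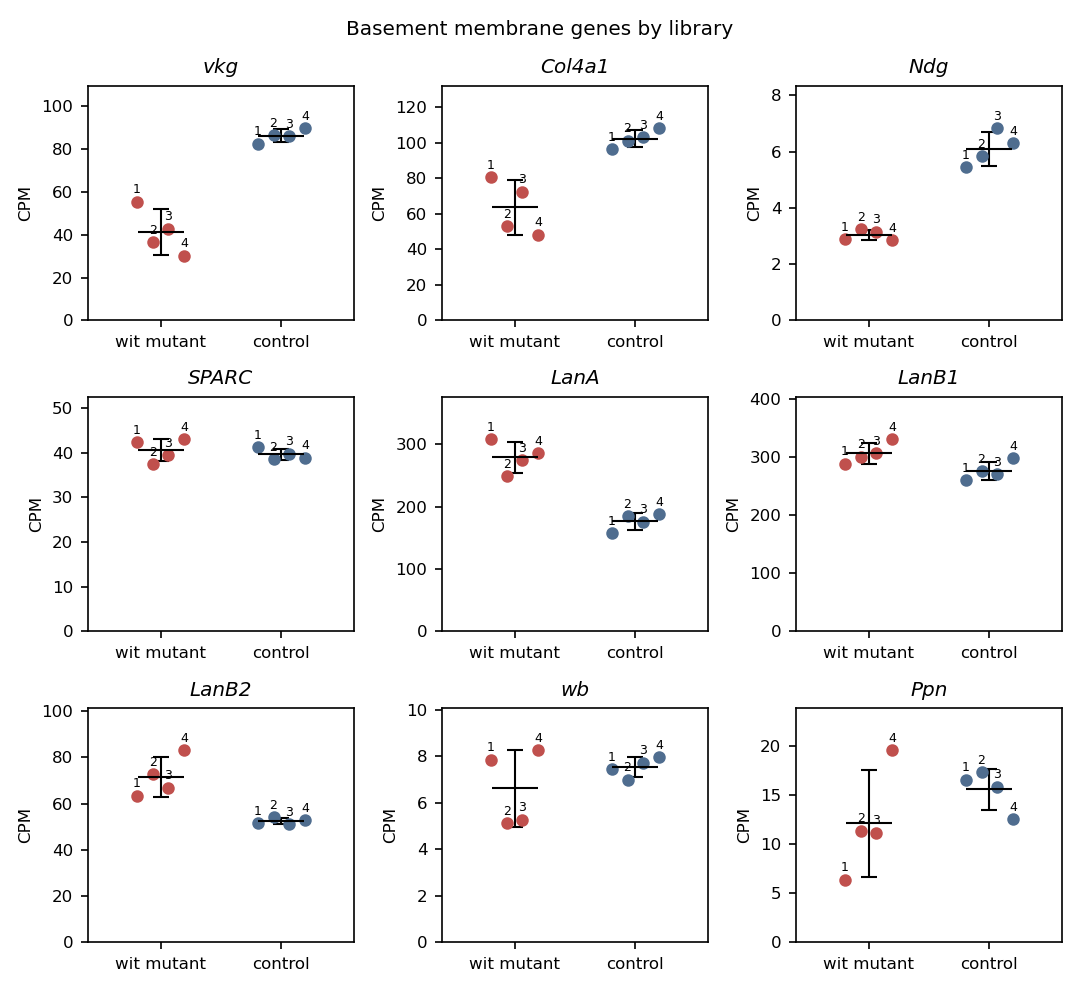
Level of each gene in CPM in the 4 wit mutant (red, left) and 4 control (blue, right) libraries, numbered by replicate; the bar is the mean with its SD. The groups are apart for vkg, Col4a1, Ndg, LanA and LanB2 and overlap for SPARC, LanB1, wb and Ppn.

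The collagen IV chains come from neighbouring genes on chromosome 2L that are read away from each other. In the BDGP6 annotation of Ensembl release 115, vkg lies on the minus strand from 5012144 to 5028191 and Col4a1 on the plus strand from 5029609 to 5037279, with 1417 bases between them. Each has 9 exons in its canonical transcript.

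The gene vkg encodes the alpha2 chain of collagen IV. Its levels in mutant replicates 1 to 4 were 55.4, 36.4, 42.8 and 30.2 CPM, against 82.4, 86.5, 86.0 and 89.6 CPM in control replicates 1 to 4. Every mutant library was below every control library, and the mutant libraries differed among themselves far more than the controls did. The mean was 41.2 ± 10.8 CPM in wit mutants and 86.1 ± 2.94 CPM in controls, a 2.1-fold fall (log2 fold change -1.07, SE 0.17, edgeR adjusted p = 0.00629). The SD was 26.2% of the mean in wit mutants and 3.42% in controls. Over the 8538 genes that averaged at least 1 CPM, the median of that ratio was 5.68% in wit mutants and 4.44% in controls.

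Col4a1 encodes the alpha1 chain. It was at 80.6, 53.0, 72.3 and 48.2 CPM in the mutant libraries, against 96.3, 101, 103 and 108 CPM in the control libraries. The mutant libraries stood in the same order as for vkg, with replicate 1 highest and replicate 4 lowest, and the groups did not overlap. The mean was 63.5 ± 15.4 CPM in wit mutants and 102 ± 4.85 CPM in controls, a 1.61-fold fall (log2 fold change -0.69, SE 0.16, edgeR adjusted p = 0.0331). This call was lost without mutant replicate 2 (adjusted p = 0.0769) and without control replicate 1, 2, 3 or 4 (0.0564, 0.0767, 0.0847 and 0.0865), whereas that of vkg was made in all 14 alternatives.

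The fall was larger for vkg than for Col4a1, and the ratio of vkg to Col4a1 counts differed between genotypes. It was 0.687, 0.687, 0.592 and 0.626 in the mutant libraries, against 0.855, 0.859, 0.834 and 0.830 in the control libraries. Mutant and control ratios did not overlap. The log2 ratio was -0.63 ± 0.11 in wit mutants and -0.24 ± 0.03 in controls (SD, n = 4 each). The difference of -0.39 had a two-sided exact permutation p of 0.0286 (0.0286 adjusted over 3 ratios), the smallest that 4 against 4 libraries can give. This ratio needs no scaling between libraries. The 3 ratios were chosen with earlier results of these data known, so their p-values describe the separation and are not those of a planned test.

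Nidogen binds laminin and collagen IV, and Ndg is its fly gene (chromosome 2R, 10313891 to 10322104, plus strand). Its level was 2.89, 3.24, 3.15 and 2.86 CPM in the mutant libraries, against 5.44, 5.83, 6.83 and 6.30 CPM in the control libraries. All mutant values lay below all control values and within a narrow span, unlike those of the collagen genes. The mean was 3.03 ± 0.188 CPM in wit mutants and 6.10 ± 0.601 CPM in controls, a 2.01-fold fall (log2 fold change -1.01, SE 0.11, edgeR adjusted p = 7.81e-05). It was called in all 14 alternatives. The gene shares 158 exon bases with CG34222 on the other strand. CG34222 averaged 0.0922 CPM in wit mutants and 0.0522 CPM in controls, and although the library kit keeps strand, no source used here says whether the counting did.

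SPARC binds collagen and is known in the fly to take part in collagen IV deposition. The gene (chromosome 3R, 26869238 to 26871995, minus strand) was at 42.4, 37.5, 39.5 and 43.0 CPM in the mutant libraries, against 41.2, 38.6, 39.8 and 38.9 CPM in the control libraries. The groups overlapped throughout. The means were 40.6 ± 2.58 CPM in wit mutants and 39.6 ± 1.18 CPM in controls (log2 fold change 0.04, SE 0.05, edgeR adjusted p = 0.672), and no alternative called it, with log2 fold changes from 0.01 to 0.07.

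**Figure D2:**
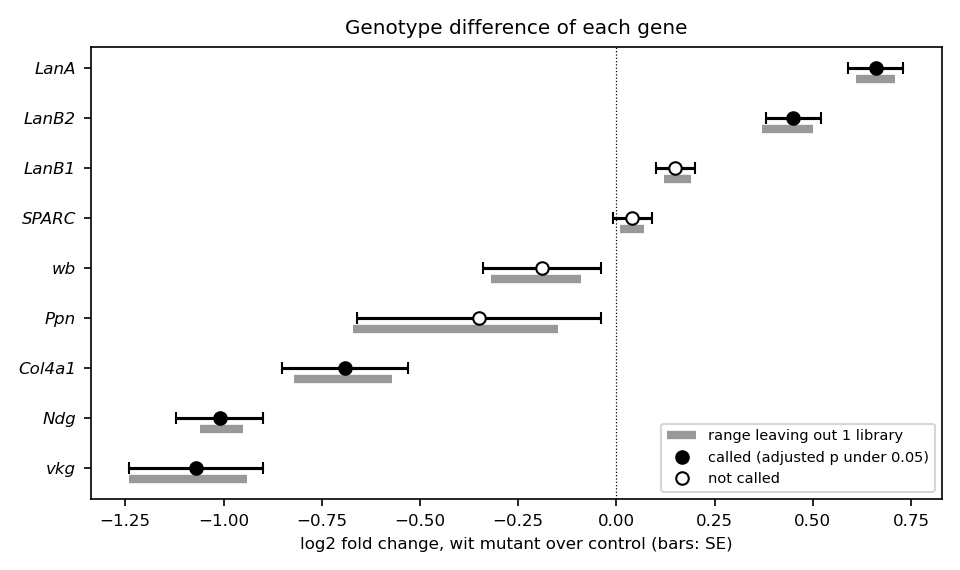
Log2 fold change of each gene, wit mutants over controls, with its SE (points) and the range when each of the 8 libraries was left out in turn (grey bars). The values run from -1.07 for vkg to 0.66 for LanA, and for each gene all grey bars keep to one side of 0.

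Fly laminins join 1 of 2 alpha chains, from LanA or wb, to the beta chain from LanB1 and the gamma chain from LanB2. LanA (chromosome 3L, 6203831 to 6218022, minus strand) was at 308, 249, 274 and 286 CPM in the mutant libraries, against 158, 185, 176 and 188 CPM in the control libraries. The lowest mutant library was above the highest control library. The mean was 279 ± 24.6 CPM in wit mutants and 177 ± 13.4 CPM in controls, a 1.58-fold rise (log2 fold change 0.66, SE 0.07, edgeR adjusted p = 0.000152).

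LanB2 (chromosome 3L, 9614914 to 9623980, plus strand) was at 63.4, 72.6, 66.9 and 83.0 CPM in the mutant libraries, against 51.4, 54.1, 51.2 and 52.7 CPM in the control libraries. The groups did not overlap, and the mutant libraries were the more variable. Here replicate 4 was highest and replicate 1 lowest among the mutants, the reverse of their order for the collagen genes. The mean was 71.5 ± 8.56 CPM in wit mutants and 52.4 ± 1.32 CPM in controls, a 1.37-fold rise (log2 fold change 0.45, SE 0.07, edgeR adjusted p = 0.00241). LanA and LanB2 were called in all 14 alternatives.

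LanB1 (chromosome 2L, 7811438 to 7820771, plus strand) was at 288, 300, 306 and 330 CPM in the mutant libraries, against 260, 275, 270 and 297 CPM in the control libraries. Control replicate 4 lay within the mutant range. The means were 306 ± 17.9 CPM in wit mutants and 276 ± 15.5 CPM in controls (log2 fold change 0.15, SE 0.05, edgeR adjusted p = 0.0701). LanB1 passed without mutant replicate 1 (adjusted p = 0.0171) and without control replicate 4 (0.037).

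The ratio of beta chain to gamma chain gene counts was lower in wit mutants. LanB1 counts were 4.54, 4.13, 4.57 and 3.98 times those of LanB2 in the mutant libraries, against 5.06, 5.08, 5.27 and 5.64 times in the control libraries. The highest mutant ratio was below the lowest control ratio. The log2 ratio was 2.10 ± 0.10 in wit mutants and 2.39 ± 0.07 in controls, a difference of -0.29 (two-sided exact permutation p = 0.0286, adjusted over 3 ratios 0.0286).

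The second alpha chain gene, wb (chromosome 2L, 14263027 to 14328262, plus strand), was at 7.86, 5.13, 5.28 and 8.26 CPM in the mutant libraries, against 7.46, 6.99, 7.73 and 7.96 CPM in the control libraries. Mutant replicates 2 and 3 were below all controls, while mutant replicate 1 lay within the control range and mutant replicate 4 above it. The means were 6.63 ± 1.66 CPM in wit mutants and 7.53 ± 0.415 CPM in controls (log2 fold change -0.19, SE 0.15, edgeR adjusted p = 0.446), and no alternative called it. Relative to LanA, wb was lower in every mutant library, with a log2 ratio of -5.42 ± 0.27 in wit mutants and -4.55 ± 0.13 in controls. That difference was -0.87 (two-sided exact permutation p = 0.0286, adjusted over 3 ratios 0.0286). Most of it lies in LanA, with a log2 fold change of 0.66 against -0.19 for wb.

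Papilin is a secreted proteoglycan-like glycoprotein related to the ADAMTS proteases. Its gene Ppn (chromosome 3R, 28520665 to 28540324, minus strand) was at 6.4, 11.4, 11.2 and 19.6 CPM in the mutant libraries, against 16.6, 17.4, 15.9 and 12.6 CPM in the control libraries. Mutant replicate 4 was above all controls and the other mutant libraries were below all controls. The means were 12.1 ± 5.47 CPM in wit mutants and 15.6 ± 2.13 CPM in controls (log2 fold change -0.35, SE 0.31, edgeR adjusted p = 0.498). With an SD of 45.1% of the mean in wit mutants and 13.6% in controls, Ppn was the most variable of the 9 genes in either genotype. The log2 fold change was -0.67 and -0.15 at the ends of its range when 1 library was left out, without a call.

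The genotypes also differ in a copy of the third chromosome, which holds 4 of the 9 genes, namely LanA, LanB2, SPARC and Ppn, as well as wit. A change that wit causes in LanA or LanB2 and one from linked differences between the chromosomes cannot be told apart here. Of the 1744 genes tested on 3L, 6.82% were called higher and 9.29% lower in wit mutants, near the shares for all genes. The 3 genes that fell are on 2L (vkg and Col4a1) and 2R (Ndg). By the stated genotypes, st1 was on both copies of the chromosome that holds wit in wit mutants, but not in controls. Whether st1 or another difference on that chromosome changed these 3 genes, or LanA and LanB2, was not tested.

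Levels of different genes were ranked per kb of the canonical Ensembl transcript, whereas the ratios and shares of counts carry no length correction. In wit mutants LanB1 was highest at 49.1 ± 2.87 CPM per kb, followed by SPARC at 35.5 ± 2.25, LanA at 23.9 ± 2.11, LanB2 at 12.2 ± 1.46, Col4a1 at 10.4 ± 2.53 and vkg at 6.4 ± 1.68 CPM per kb. Ppn, Ndg and wb followed at 1.27 ± 0.573, 0.630 ± 0.039 and 0.585 ± 0.146 CPM per kb. In controls the order was LanB1 at 44.2 ± 2.49, SPARC at 34.7 ± 1.04, Col4a1 at 16.7 ± 0.795, LanA at 15.1 ± 1.15, vkg at 13.4 ± 0.458 and LanB2 at 8.94 ± 0.225 CPM per kb, with Ppn, Ndg and wb at 1.64 ± 0.223, 1.27 ± 0.125 and 0.665 ± 0.0366 CPM per kb.

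Both collagen genes therefore stood below LanA and LanB2 in the mean of wit mutants, whereas in controls both were above LanB2. Among neighbours in the mutant order the ranges over libraries overlapped for LanB2 (10.8 to 14.2 CPM per kb) and Col4a1 (7.90 to 13.2), for Col4a1 and vkg (4.69 to 8.61), for Ppn and Ndg, and for Ndg and wb. In the control order they overlapped for Col4a1 and LanA and for LanA and vkg, and for Ppn and Ndg. The isoform mix is not known. With the shortest annotated transcripts in place of the canonical ones, wb stood above Ndg in wit mutants, at 0.739 against 0.657 CPM per kb, while in controls Ndg stayed above wb, at 1.32 against 0.84 CPM per kb.

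**Figure D3:**
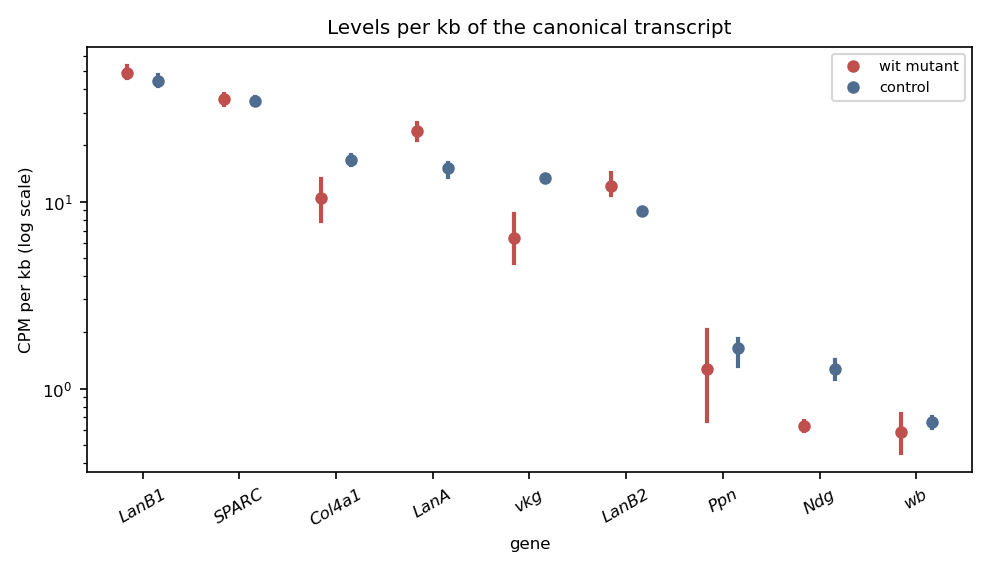
Level per kb of canonical transcript (log scale) of each gene, ordered by the control mean, in wit mutants (red, left) and controls (blue, right); points are means and lines span the 4 libraries. LanB1 leads in both genotypes, and the collagen genes fall below LanB2 in the mutant means.

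Summed over the 9 genes, the level was 768 to 855 CPM in wit mutants and 719 to 801 CPM in controls, so these ranges overlapped while the makeup shifted. The counts of vkg and Col4a1 together were 0.206, 0.144, 0.178 and 0.112 times those of LanA, LanB1 and LanB2 together in the mutant libraries, against 0.380, 0.364, 0.380 and 0.367 times in the control libraries. LanA made up 32.4% to 36.0% of the counts of the 9 genes in wit mutants and 22% to 24% in controls. For vkg the share was 3.54% to 6.48% in wit mutants and 11.2% to 11.5% in controls. The sums, ratios and shares here are of counts without length correction. A long transcript such as that of LanA (11690 bases) therefore weighs more than that of SPARC (1143 bases).

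The genes nearest to vkg in pattern, by the root mean square distance of centred log2 CPM over the 8 libraries, were CG14566 (0.080), the glutamine synthetase gene Gs2 (0.084), the tyramine beta hydroxylase gene Tbh (0.123), CG14572 (0.126) and GstT4 (0.133). The nearest to Col4a1 were CG1090 (0.059), CG11000 (0.067), CG7888 (0.072), alpha-Est9 (0.079) and the GABA transporter gene Gat (0.080). These genes were picked for likeness, so neither their falls nor the order of their libraries is a separate result. In 9 of the 10 the mutant libraries stood in the order of vkg and Col4a1, namely replicates 1, 3, 2 and 4 from high to low. Gs2, for example, was at 418, 248, 292 and 183 CPM in mutant replicates 1 to 4, against 557, 571, 569 and 574 CPM in control replicates 1 to 4. The distance between vkg and Col4a1 themselves was 0.203, larger than from either to any of its own 5 nearest genes.

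**Figure D4:**
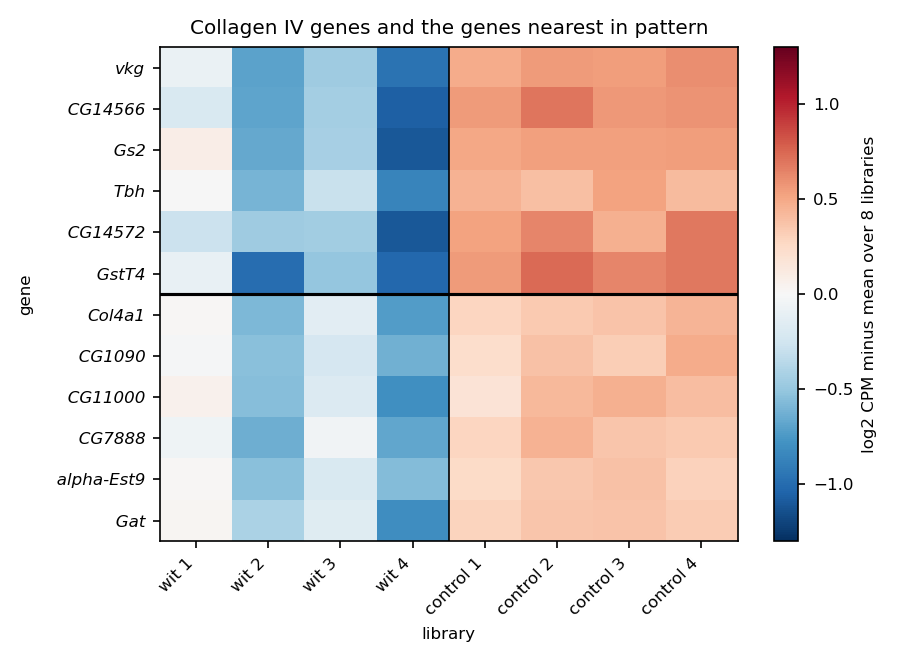
Log2 CPM minus the mean over 8 libraries (colour) for vkg and Col4a1 and, under each, its 5 nearest genes in pattern; wit mutant libraries are left of the line and control libraries right. All rows are lower in wit mutants, least so in replicate 1, or in replicate 3 for CG7888.

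Among genes whose products modify, crosslink or export collagen, 2 of 10 tested rose, against 6.12% of all genes, and 8 did not pass, with a median log2 fold change of 0.05. Plod, the lysyl hydroxylase of collagen, rose to 79.1 to 86.1 CPM in wit mutants, against 63.0 to 69.6 CPM in controls (log2 fold change 0.33, SE 0.04, edgeR adjusted p = 0.000312). PH4alphaEFB, a prolyl 4-hydroxylase of collagen, was at 82.1 to 89.5 CPM in wit mutants and 73.9 to 79.2 CPM in controls (0.16, SE 0.04, adjusted p = 0.0197). Its call was lost without mutant replicate 3 (0.0648), control replicate 2 (0.0561) or control replicate 3 (0.0726). The peroxidasin gene Pxn had -0.08 (SE 0.10), and of the named genes Grasp65 and Sec23 had 0.14 and 0.07 without passing.

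Of 11 tested receptor genes 4 fell, against 8.66% of all genes, and 7 did not pass, with a median of -0.14. The integrin subunit gene if (alphaPS2) fell to 23.3 to 30.5 CPM in wit mutants, against 33.6 to 37.9 CPM in controls (log2 fold change -0.45, SE 0.08, edgeR adjusted p = 0.00398). Sdc, the heparan sulphate proteoglycan syndecan, fell to 407 to 442 CPM in wit mutants, against 491 to 526 CPM in controls (-0.23, SE 0.04, adjusted p = 0.0021). The glypican gene dally (-0.16) lost its call without control replicate 2 (adjusted p = 0.0572). The collagen receptor homologue Ddr (-0.14, adjusted p = 0.0393) lost it without mutant replicate 2, 3 or 4 or control replicate 2, 3 or 4 (0.0605 to 0.108). The shared integrin beta subunit gene mys had 0.03 (SE 0.05) and the dystroglycan gene Dg -0.04 (SE 0.04).

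Inside the cell, rhea, the talin that links integrins to actin, fell to 1290 to 1370 CPM in wit mutants, against 1580 to 1720 CPM in controls (log2 fold change -0.33, SE 0.04, edgeR adjusted p = 0.000341). Of the other 8 genes of integrin-linked adhesion, stck (PINCH) had 0.12 with adjusted p = 0.0493, which was lost in 12 of 14 alternatives, among them without each library other than mutant replicate 1 (0.0645 to 0.132). The other 7 did not pass, with Pax at 0.12 and Fit1 at 0.09. Thus 1 of 9 tested fell, against 8.66% of all genes, and 1 of 9 rose, against 6.12%, with a median of 0.09. Each count is a single gene, near the share over all genes.

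Of 6 matrix protease and inhibitor genes 2 fell, against 8.66% of all genes, and 4 did not pass, with a median of -0.11. The ADAMTS protease gene stl showed the largest change of the matrix lists, at 1.23, 1.38, 1.88 and 2.31 CPM in mutant replicates 1 to 4, against 9.49, 6.80, 7.15 and 8.18 CPM in control replicates 1 to 4. The groups were far apart (log2 fold change -2.19, SE 0.18, edgeR adjusted p = 1.65e-05). AdamTS-B fell to 21.5 to 25.8 CPM in wit mutants, against 32.8 to 38.8 CPM in controls (-0.56, SE 0.07, adjusted p = 0.000157). The metalloproteinase genes Mmp1 and Mmp2, with 0.30 (SE 0.24) and -0.12 (SE 0.07), and their inhibitor gene Timp, with -0.11 (SE 0.08), did not pass.

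Other matrix genes mostly fell or did not pass. Of 12 tested, 6 fell, against 8.66% of all genes, 1 rose, against 6.12%, and 5 did not pass, with a median of -0.14. The thrombospondin gene Tsp was at 2.23, 1.70, 1.94 and 3.37 CPM in the mutant libraries, against 5.79, 6.28, 6.46 and 5.39 CPM in the control libraries (log2 fold change -1.37, SE 0.18, edgeR adjusted p = 0.000454). Cow (-0.31, SE 0.04) and the laminin-related netrin gene NetB (-0.20, SE 0.04) also fell. Mp, the fly collagen XV/XVIII homologue (-0.18), NetA (-0.18) and Ten-a (-0.18) were named after their values were seen, and Ten-a lost its call without mutant replicate 2 or 3 or control replicate 2, 3 or 4 (0.0546 to 0.105). Tig, which encodes tiggrin, a ligand of the integrin that contains the if product, rose to 36.2 to 48.0 CPM in wit mutants, against 30.3 to 34.2 CPM in controls (0.42, SE 0.08, adjusted p = 0.00516).

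**Figure D5:**
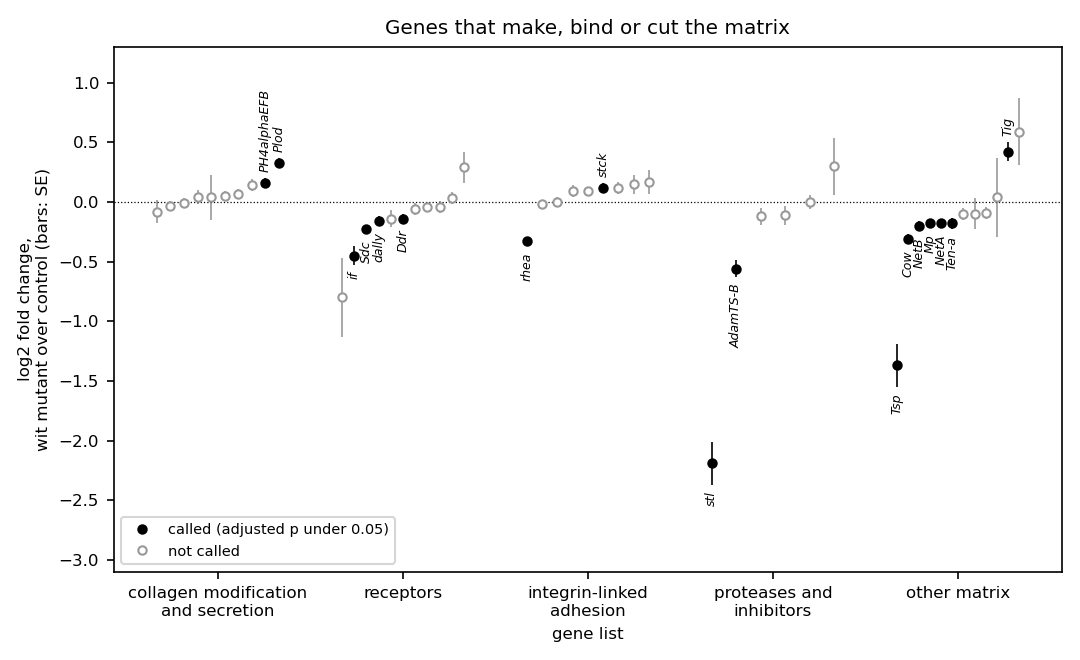
Log2 fold change, wit mutants over controls, with SE for each tested gene of 5 lists of genes that modify, bind, cut or join the matrix; filled points passed the test and carry their name. The named values run from -2.19 for stl to 0.42 for Tig.

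Markers of cell types that make or touch the basement membrane were read beside these values, and their part in the results was not tested. Counts of called markers stand against 8.66% of all genes lower and 6.12% higher. Hemocyte markers summed to 190 to 217 CPM in wit mutants and 187 to 209 CPM in controls, of which crq held 63.3%, and 6 of the 10 matched were under 1 CPM in every library while none was at 0 counts throughout. Hml was at 0.884 to 2.04 CPM in wit mutants and 1.08 to 2.66 CPM in controls (log2 fold change -0.42, adjusted p = 0.378). Of 5 tested hemocyte markers PPO2 fell (-1.10, adjusted p = 0.0419), a call lost when any library but control replicate 2 was left out (0.0505 to 0.101).

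Fat body markers summed to 711 to 743 CPM in wit mutants and 793 to 947 CPM in controls, with 82.9% from apolpp. Without apolpp the other 11 summed to 121 to 163 CPM in wit mutants and 128 to 133 CPM in controls, and the median log2 fold change of the 12 was 0.19. Of 12 tested, 2 fell, apolpp (-0.34) and Apoltp (-0.32), and 2 rose, GNBP1 (0.71) and Mtp (0.20), where Mtp lost its call without any 1 library other than mutant replicate 1 (adjusted p 0.0611 to 0.112). The larval serum protein genes Lsp2, at 1.37 to 11.6 CPM in wit mutants and 1.56 to 3.03 CPM in controls (log2 fold change 1.2, SE 0.62), and Lsp1beta, at 1.37 to 3.4 CPM in wit mutants and 1.26 to 2.7 CPM in controls (0.44, SE 0.29), did not pass. Fbp1, at 2.32 to 11.5 CPM in wit mutants and 1.67 to 4.14 CPM in controls (0.96, SE 0.5), did not pass either. Surface glia markers summed to 1110 to 1170 CPM in wit mutants and 1170 to 1220 CPM in controls, and 1 of 12, the septate junction gene Nrx-IV (-0.16), fell, a share near the 8.66% of all genes.

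Glial markers summed to 1570 to 2030 CPM in wit mutants and 2250 to 2300 CPM in controls. Without Gs2 and Gat, which were also picked for likeness to the collagen genes, the other 8 summed to 1240 to 1350 CPM in wit mutants and 1380 to 1400 CPM in controls. The glial transcription factor gene repo was at 102 to 112 CPM in wit mutants and 110 to 115 CPM in controls and did not pass. Of 10 tested, 4 fell: wrapper (-0.38), Eaat1 (-0.21), Gs2 (-1.0) and Gat (-0.65). Eaat1 was lost without mutant replicate 2 or 4 or control replicate 2 or 3 (adjusted p 0.0508 to 0.0768). Gs2 and Gat were lost without mutant replicate 2 or 3 or any 1 control library (0.0669 to 0.0893 and 0.0651 to 0.1). Neuron markers summed to 4020 to 4550 CPM in wit mutants and 4980 to 5200 CPM in controls. Among the mutants the glial and the neuron sums were both highest in replicate 1 and lowest in replicate 4, as were the collagen genes. Of 7 neuron markers tested 4 fell, VGlut (-0.67), nSyb (-0.22), brp (-0.18) and Syt1 (-0.19). The calls of brp and Syt1 were lost without mutant replicate 2 or 4 or control replicate 2, 3 or 4 (0.0655 to 0.0925 and 0.0793 to 0.102).

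Trachea markers summed to 155 to 215 CPM in wit mutants and 150 to 179 CPM in controls, with 39.5% from trh. Among the mutants the trachea and the surface glia sums were highest in replicate 4 and lowest in replicate 1, as were LanB1, LanB2 and Ppn. The fat body sum without apolpp did the same, at 163 CPM in mutant replicate 4 and 121 CPM in mutant replicate 1. These 2 libraries were also the farthest apart of any same-genotype pair (chi-square per degree of freedom 36.2). Shared orders, here and for the glial and neuron sums, therefore do not single out a cell type. Of 6 tested Gasp rose (0.59), which was lost without mutant replicate 2, 3 or 4 or control replicate 2, 3 or 4 (adjusted p 0.0722 to 0.118). Muscle markers summed to 98.0 to 105 CPM in wit mutants and 91.6 to 105 CPM in controls. Mef2 held 43.5% of this sum, and sls averaged 40.1 CPM in wit mutants and 34.3 CPM in controls. Of the 12 matched, 2 were under 1 CPM in every library, so the sum says little about the weaker markers. Of 9 tested bt fell (-0.61) and Mf rose (0.69), the call of Mf being lost without mutant replicate 1, 2 or 3 or control replicate 2, 3 or 4 (0.0507 to 0.118). Imaginal disc markers summed to 336 to 351 CPM in wit mutants and 350 to 368 CPM in controls, with 49.6% from sd. Of 7 tested vg rose (0.18) and sd fell (-0.11). That of vg was lost without mutant replicate 2 or 3 or any 1 control library (0.0784 to 0.138), and that of sd without mutant replicate 2, 3 or 4 or control replicate 2, 3 or 4 (0.0745 to 0.133).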

How the data were processed

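The authors deposited a file of estimated counts for each library. Kallisto 0.43.0, DESeq2 and genome build BDGP6 appear, with no roles, per the submitters' processing notes. As 31.4% of values had decimals, the counts were rounded to integers. A reference table gave symbols for 13948 of the 14175 identifiers, and the BDGP6 annotation of Ensembl release 115 gave coordinates; trol and 12 symbols of the other lists were not analysed here. The genotypes were compared with edgeR 4.0.16 in R 4.3.3 (filterByExpr, minimum count 10; TMM scaling; robust quasi-likelihood test, no covariate; Benjamini-Hochberg over all genes; calls at an adjusted p under 0.05), checked on simulated data. CPM are on TMM-scaled totals, and 3 counts correspond to 0.0926 to 0.142 CPM, which covers counting error only. The SE is the log2 fold change over the root of F. Log2 ratios used a pseudocount of 0.5 (alternative 5). Alternatives were DESeq2 1.42.0 (size factors, Wald test), limma 3.58.1 (voom with quality weights), 2 other filters, a replicate block, and leaving out each library. Figures used matplotlib 3.10.9.

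The members, gene lists and ratios were chosen with earlier results of these data known, and the alternatives for marker lists, marker sums and other named genes, and the test of ratios with 1 library left out, after the data were seen. Named genes were the members, wit, up to 4 genes of smallest adjusted p in each list, and the 5 genes nearest to vkg and to Col4a1; other genes were named after their values were seen. Each replicate pooled separate nerve cords per the labels' protocols. No 2 libraries of the same genotype agreed within sampling noise (chi-square per degree of freedom 3.77 to 36.2).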

Additional observations from a re-analysis of the deposited data

Results flagged for a closer look

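In 74 groups of 4 libraries examined for some of the named genes, 3 held a value far from the other 3, where chance flags about 1 in 20 groups. None of these was for a basement membrane gene. In wit mutants, rhea was at 1370 CPM and NetA at 32.7 CPM in replicate 3, apart from the other mutant libraries. In controls, CG14566 was at 79.3 CPM in replicate 2, apart from the other control libraries.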

How the results depend on the processing

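No log2 fold change of a named gene reversed, and of 126 values of the 9 genes under alternatives 115 kept their side of the threshold, 7 (all Col4a1) lost and 4 (all LanB1) gained a call. Beyond single libraries, Col4a1 was lost with no count filter (adjusted p = 0.0613), and LanB1 passed with limma-voom (0.0248). Leaving out 1 library gave 2 to 3 lower and 2 to 3 higher basement membrane genes. It gave 1 to 3 higher collagen modification and secretion genes, 2 to 4 lower receptor genes, 0 to 3 higher adhesion genes, and 5 to 6 lower and 1 to 2 higher other matrix genes. Over all genes it gave 524 to 1124 lower and 304 to 1060 higher, in each case fewest without control replicate 2 and most without mutant replicate 1. The log2 ratio differences then ran from -0.41 to -0.34 for vkg over Col4a1, -0.32 to -0.25 for LanB1 over LanB2 and -0.98 to -0.78 for wb over LanA. Each had an exact permutation p of 0.0286, the smallest that 35 splits can give. The groups did not overlap for any ratio with all libraries, so leaving 1 out could not make them overlap. These p-values are therefore no separate check. The count of higher adhesion genes, 1 as reported, was 0 with DESeq2 size factors, the DESeq2 Wald test, either other filter and the replicate block, and 3 with limma-voom. The count of all genes higher was 1009 with limma-voom. With the replicate block it was 301, the count of lower genes was 553, 1 collagen modification gene was higher, Col4a1 was lost (0.0756) and LanB1 passed (0.0252). The numbers gave no sign of pairing, with correlations of deviations between same-numbered libraries of -0.048, 0.041, -0.086 and -0.31. Counts of called markers were within 1.5 times of those reported in 152 of 224 values, and the cause of none of these shifts was tested.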
